A study of Caenorhabditis elegans with 5 samples.

Results

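The messages of 7 genes for core P granule proteins, *pgl-1*, *pgl-3*, *glh-1*, *glh-2*, *glh-3*, *glh-4* and *deps-1*, were examined in the mRNA-seq data. They were picked by sequence name, without use of their values, from the 20911 gene models of the deposited table, and each name matched 1 model (ZK381.4a.1, C18G1.4a, T21G5.3, C55B7.1.1, B0414.6, T12F5.3.1 and Y65B4BL.2, in the order above). Poly(A) RNA was sequenced from synchronized young adults of *C. elegans* raised at 19 °C on *E. coli* OP50, in 5 libraries with 1 library per genotype. The genotypes were WT (strain N2), the single mutants *set-32(ok1457)* and *hrde-1(tm1200)*, a histone methyltransferase (HMT) double mutant of *met-2(n4256)* with *set-25(ok5021)*, and an HMT triple mutant that combines this double mutant with the *set-32* allele. *set-32*, *met-2* and *set-25* encode HMTs associated with the repressive mark at lysine 9 of histone H3. *hrde-1* encodes an Argonaute that works with small RNAs inside germline nuclei. The study used these strains to ask whether this histone mark is needed for silencing by nuclear RNAi. Each library came from a grind of many pooled whole animals. Germline and somatic RNA are mixed in it, so fewer germ cells and less RNA per germ cell cannot be told apart.

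P granules are condensates of RNA and protein that sit on the outer face of germ cell nuclei, over the nuclear pores, through most of germline life. Messages leaving the nucleus pass through them, and Argonaute proteins that carry small RNAs are concentrated there. PGL-1 and PGL-3 are related scaffold proteins with RGG-type RNA-binding repeats, which bind each other and form the body of the granule. GLH-1 to GLH-4 are germline DEAD-box RNA helicases of the Vasa family. GLH-1 is the member most needed for fertility, and GLH-3 lacks the phenylalanine-glycine repeats that the other GLH proteins carry. DEPS-1 is a P granule protein needed for the normal localization of PGL-1 and for efficient RNAi. In the soma, repressors of the synMuv B class keep genes such as *pgl-1* and *glh-1* off.

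Most of the genes lie on chromosome I of the WBcel235 assembly, which is newer than the assembly the authors aligned to. They are *deps-1* (I, 506473 to 509056, plus strand, up to 12 exons), *glh-4* (I, 3727027 to 3731179, plus, 9 exons), *glh-3* (I, 5792321 to 5795114, minus, 6 exons), *glh-2* (I, 6513928 to 6517507, plus, 9 exons) and *glh-1* (I, 6854478 to 6857536, plus, 7 exons). *pgl-1* lies on chromosome IV (6974441 to 6977318, minus, up to 9 exons) and *pgl-3* on chromosome V (4755979 to 4758587, plus, 8 exons). Only *deps-1* overlaps another annotated gene, the antisense protein-coding gene Y65B4BL.7. That gene was listed at 0.86 to 3 RPKM (reads per kilobase of model, scaled to library depth), far below *deps-1* in every library, and the counting strand is not stated. In the authors' germline classes, *pgl-3*, *glh-1* and *glh-3* are marked intrinsic, *deps-1* oocyte, and *pgl-1*, *glh-2* and *glh-4* carry no class. None of the 7 is on the authors' lists of nuclear RNAi targets.

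The values correspond to about 1803000 reads in *hrde-1*, the shallowest library, to 2894000 in the HMT triple mutant, as estimated from the steps between low values, and each member rested on 118 to 2246 reads in a library. Intervals below are exact (Clopper-Pearson, 95%), come from these approximate read numbers and cover counting error only. With no replicate, no difference has a replicate check and no p-value was computed. As a check of the genotypes, *met-2* was at 47.3 RPKM in WT and at 12.6 and 9.45 RPKM in the double and triple HMT mutants, and *set-25* at 17.5, 10.3 and 8.64. *set-32* was at 12.5 RPKM in WT and at 8.15 and 5.65 in its single and the HMT triple mutant, and *hrde-1* at 227.5 RPKM in WT and 159.7 in its own mutant. *hrde-1* was also lower in *set-32*, at 177.9 RPKM, so it is a weak check of its own genotype. Reads of every targeted gene remained in the libraries that carry its mutation.

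All 7 genes were expressed in every library, over a range of levels of about an order of magnitude. In WT, *glh-1* (313 RPKM) and *pgl-1* (292 RPKM) were the most abundant, and 98.4% and 98.3% of all models had a lower level. They were followed by *pgl-3* (148 RPKM), *glh-2* (123 RPKM), *deps-1* (121 RPKM), *glh-4* (75.5 RPKM) and *glh-3* (29.9 RPKM), the only member with under 90% of the models below it (77.2%). RPKM is scaled by length, but model types differ, with *pgl-1*, *glh-2* and *glh-4* taken at exon length and the rest at coding length. Other bias between genes was not assessed, so comparisons of level between genes are approximate, and their intervals cover counting error only. Within WT, *glh-1* was 1.07 times *pgl-1* (1.00 to 1.15), and *glh-2* was 1.01 times *deps-1* (0.911 to 1.13). The first pair of neighbours in the order thus differed barely beyond counting error, and the second did not. *pgl-3* exceeded *glh-2* by a factor of 1.20 (1.09 to 1.32), and *glh-4* exceeded *glh-3* by 2.53 (2.12 to 3.03). *pgl-3*, *glh-4* and *glh-3* held ranks 3, 6 and 7 in all 5 libraries.

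**Figure D1:**
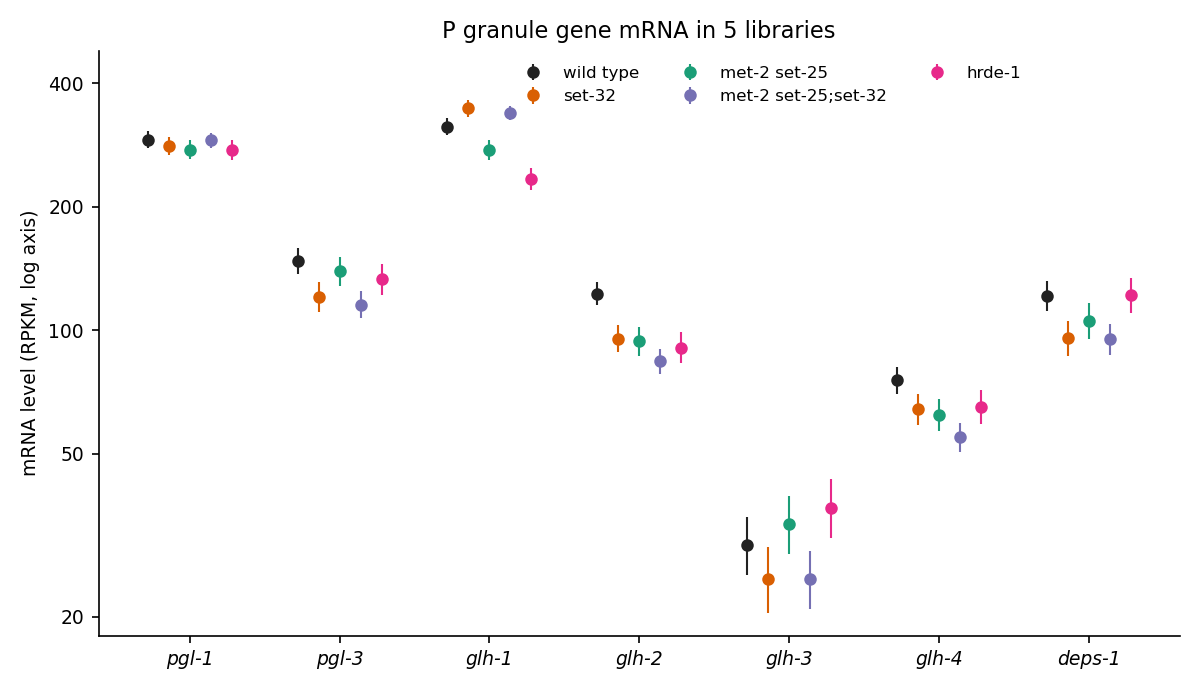
mRNA level of each P granule gene in RPKM (log axis) in the 5 libraries, 1 point per library, with exact Poisson intervals (95%) for counting error. *pgl-1* spans 275 to 292 RPKM, while *glh-1* spans 234 in *hrde-1* to 348 in *set-32*, and *glh-3* stays lowest throughout.

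No member differed 2-fold between any of the libraries. The gap between the highest and the lowest library was 1.06-fold for *pgl-1*, 1.28-fold for *pgl-3* and *deps-1*, 1.37-fold for *glh-4*, 1.46-fold for *glh-2*, 1.49-fold for *glh-1* and 1.50-fold for *glh-3*. A model was called when it was at least 2-fold apart after adding 1 RPKM to both values and had at least 5 RPKM in the higher library. This is a rule of size, with no test behind it. By this rule 0 of 7 members were called in each of the 4 comparisons with WT. Among all models tested, 4.19% were called higher and 2.14% lower in *set-32*, and 3.3% and 1.6% in *met-2 set-25*. The shares were 3.76% and 1.7% in the HMT triple mutant and 2.68% and 3.55% in *hrde-1*.

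The scaffold gene *pgl-1* had the narrowest range of the 7. It was at 292 RPKM in WT, 281 in *set-32*, 275 in *met-2 set-25*, 290.2 in *met-2 set-25;set-32* and 275 in *hrde-1*. Its 5 values were the closest together of any member, and the interval of its ratio to WT included 1 in every mutant. Those ratios were 0.964 (0.899 to 1.03) in *set-32*, 0.945 (0.879 to 1.02) in the HMT double mutant, 0.995 (0.932 to 1.06) in the HMT triple mutant and 0.943 (0.874 to 1.02) in *hrde-1*. Against the median of the other 4 libraries *pgl-1* was at a log2 ratio of 0.06 in the HMT triple mutant, where it was just below 0 against WT. Scaled to the authors' intrinsic germline class, it was at 0.17 in *set-32* and 0.18 in the HMT triple mutant, outside those intervals.

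Its paralog *pgl-3*, the other PGL scaffold gene, was at 148 RPKM in WT, 121 in *set-32*, 139 in *met-2 set-25*, 115 in *met-2 set-25;set-32* and 133 in *hrde-1*. The 2 libraries with the *set-32* allele were the lowest. The ratio to WT was 0.818 (0.732 to 0.915) in *set-32* and 0.782 (0.704 to 0.868) in the HMT triple mutant. In the HMT double mutant (0.943, 0.844 to 1.05) and in *hrde-1* (0.902, 0.804 to 1.01) the interval included 1. Against the median of the other 4 libraries the direction turned in both, to log2 ratios of 0.13 and 0.035. Because *pgl-1* was nearly flat, the ratio of *pgl-1* to *pgl-3* message within a library moved from 1.98 (1.81 to 2.16) in WT to 2.33 (2.11 to 2.57) in *set-32* and 2.51 (2.31 to 2.75) in the HMT triple mutant. It was 1.98 (1.80 to 2.19) in the HMT double mutant and 2.07 (1.86 to 2.30) in *hrde-1*. Such a ratio within a library does not depend on how libraries were scaled to each other.

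*glh-1*, the chief Vasa-family helicase gene, had its own pattern among the 7. It was at 313 RPKM in WT, 348 in *set-32*, 275 in *met-2 set-25*, 339 in *met-2 set-25;set-32* and 234 in *hrde-1*. It was highest in the 2 libraries with the *set-32* allele, where most other members were lower than in WT, and lowest in *hrde-1*. The ratio to WT was 1.11 (1.04 to 1.19) in *set-32*, 0.879 (0.817 to 0.945) in the HMT double mutant, 1.08 (1.02 to 1.15) in the HMT triple mutant and 0.746 (0.689 to 0.808) in *hrde-1*. *glh-1* was the only member whose interval lay above 1 in any comparison with WT. The span from *hrde-1* to *set-32* was 1.49-fold (1.37 to 1.61).

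*glh-2*, the paralog nearest to *glh-1* in wild-type level among the helicases, was lower than WT in all 4 mutants. It was at 123 RPKM in WT, 95.3 in *set-32*, 94.0 in *met-2 set-25*, 84.0 in *met-2 set-25;set-32* and 90.7 in *hrde-1*. The 4 mutant libraries lay close together and WT stood apart above them. The ratios to WT were 0.776 (0.703 to 0.858), 0.765 (0.691 to 0.848), 0.684 (0.622 to 0.753) and 0.739 (0.663 to 0.822) in the same order, each with an interval below 1. Since every one of these ratios uses the same WT library, they are not independent. Against the median of the other 4 libraries *glh-2* was at a log2 ratio of 0.045 in *set-32* and 0.015 in *met-2 set-25*, so the direction turned there. It remained below 0 at -0.17 in the HMT triple mutant and -0.06 in *hrde-1*.

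*glh-4*, whose protein overlaps in function with GLH-1, followed *glh-2*. It was at 75.5 RPKM in WT, 64.2 in *set-32*, 62.2 in *met-2 set-25*, 54.93 in *met-2 set-25;set-32* and 64.95 in *hrde-1*. WT was again the highest library and the HMT triple mutant the lowest. The ratios were 0.851 (0.758 to 0.954), 0.824 (0.731 to 0.926), 0.728 (0.652 to 0.814) and 0.861 (0.762 to 0.972). With the other 4 libraries as reference it was at 0.014 in *set-32* and 0.039 in *hrde-1* on the log2 scale, turning direction in both. The ratio of *glh-2* to *glh-4* within a library stayed between 1.40 in *hrde-1* (1.23 to 1.59) and 1.63 in WT (1.47 to 1.80), with intervals that overlapped.

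*glh-3*, the least abundant helicase gene, lay on the other side of WT from *glh-1* in each mutant. It was at 29.9 RPKM in WT, 24.7 in *set-32*, 33.6 in *met-2 set-25*, 24.7 in *met-2 set-25;set-32* and 36.9 in *hrde-1*. The 2 libraries with the *set-32* allele were the lowest and *hrde-1* the highest. With 118 to 156 reads per library, its interval against WT included 1 in all 4 mutants, the ratio being 0.828 (0.646 to 1.06) in *set-32*, 1.13 (0.892 to 1.42) in the HMT double mutant, 0.826 (0.655 to 1.04) in the HMT triple mutant and 1.24 (0.979 to 1.56) in *hrde-1*. A difference from WT was not detectable at this depth. Between some libraries farther apart the counting interval excluded 1. *glh-3* was 1.49-fold higher in *hrde-1* than in *set-32* (1.16 to 1.92). In the HMT triple mutant it stood at 0.734 times the level of the HMT double mutant (0.582 to 0.924). The first of these pairs lies near the ends of the range of *glh-3*, so its interval alone does not establish a difference.

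*deps-1* was at 121 RPKM in WT, 95.6 in *set-32*, 105 in *met-2 set-25*, 95.1 in *met-2 set-25;set-32* and 122 in *hrde-1*. WT and *hrde-1* were the highest and nearly equal, at a ratio of 1.01 (0.884 to 1.15). In *set-32* the ratio to WT was 0.789 (0.693 to 0.902) and in the HMT triple mutant 0.785 (0.695 to 0.888). The double mutant lay between at 0.870, with an interval that barely excluded 1 (0.763 to 0.992).

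**Figure D2:**
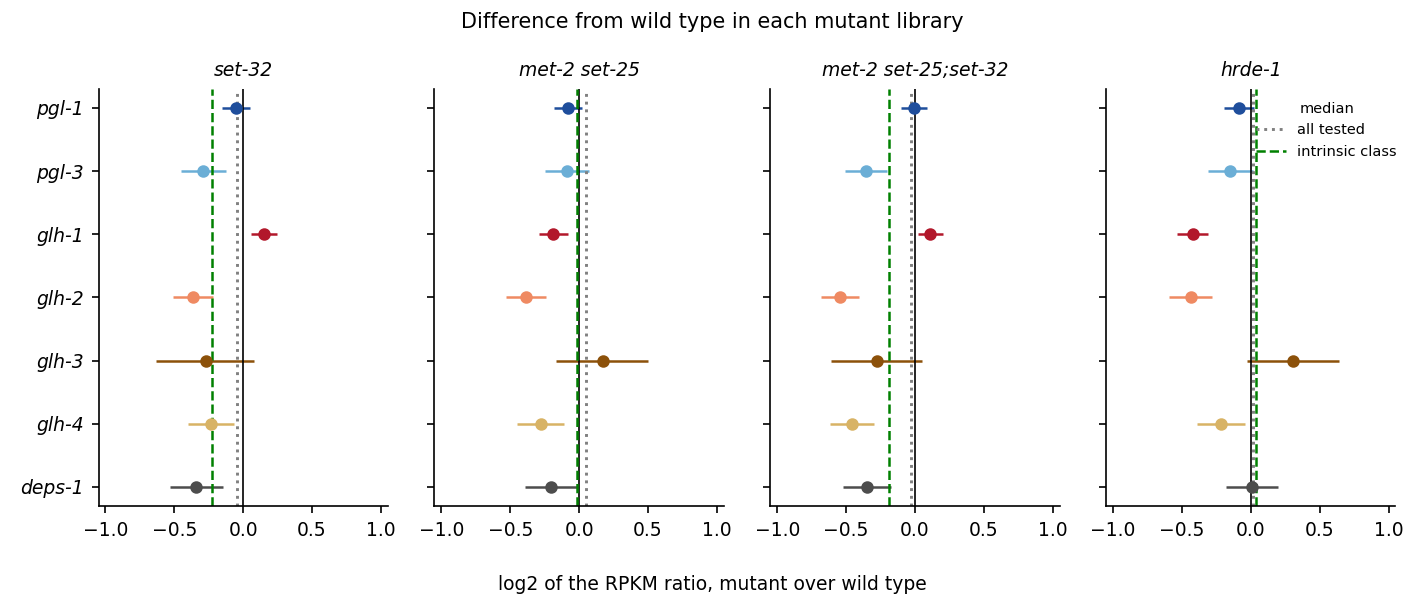
log2 of the RPKM ratio of each mutant to WT for the 7 P granule genes, with exact counting intervals (95%), and as vertical lines the median of all models tested (dotted) and of the authors' intrinsic germline class (dashed). *glh-1* lies above 0 in *set-32* and the HMT triple mutant, *glh-2* and *glh-4* lie below 0 in all 4 mutants, and no point reaches 1 or -1.

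The balance among the helicase messages therefore differed between libraries. *glh-1* made up 57.9% of the summed RPKM of the 4 *glh* genes in WT, 65.4% in *set-32*, 59.2% in the HMT double mutant, 67.4% in the HMT triple mutant and 54.8% in *hrde-1*. The share of *glh-3* was 5.52%, 4.65%, 7.23%, 4.91% and 8.66% in the same order. The summed level itself was 541 RPKM in WT, 532 in *set-32*, 465 in the HMT double mutant, 502 in the HMT triple mutant and 426 in *hrde-1*. It was thus close to WT in *set-32*, where the higher *glh-1* stood against lower *glh-2* and *glh-4*.

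Ratios within a library showed how far the genes moved against each other. *glh-1* to *glh-3* was 10.5 (8.90 to 12.4) in WT, 14.1 (11.7 to 17.1) in *set-32*, 8.19 (6.92 to 9.78) in the HMT double mutant, 13.7 (11.7 to 16.3) in the HMT triple mutant and 6.33 (5.31 to 7.60) in *hrde-1*. This 2.22-fold span was the widest of the 21 pairs of members, and the intervals of the *set-32* and the *hrde-1* library lay far apart. *glh-1* to *glh-2* was 2.55 (2.36 to 2.76) in WT and 2.58 (2.32 to 2.87) in *hrde-1*, where both genes were lower by about the same factor. The same ratio was 3.65 (3.34 to 3.99) in *set-32*, 2.93 (2.66 to 3.23) in the HMT double mutant and 4.03 (3.72 to 4.38) in the HMT triple mutant. The narrowest span, 1.17-fold, was that of *glh-2* to *glh-4*.

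The order of the 2 most abundant members also changed. *glh-1* exceeded *pgl-1* by 1.24 (1.15 to 1.33) in *set-32* and 1.17 (1.10 to 1.24) in the HMT triple mutant. Both were equal within error in the HMT double mutant, at 0.999 (0.925 to 1.08). In *hrde-1*, *glh-1* was 0.850 times *pgl-1* (0.780 to 0.927). *deps-1* ranked above *glh-2* in all 4 mutants and below it in WT. It was at 1.34 times the level of *glh-2* in *hrde-1* (1.18 to 1.53) and 1.13 times in the HMT triple mutant (1.01 to 1.27), while the intervals of the other 3 libraries included 1.

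**Figure D3:**
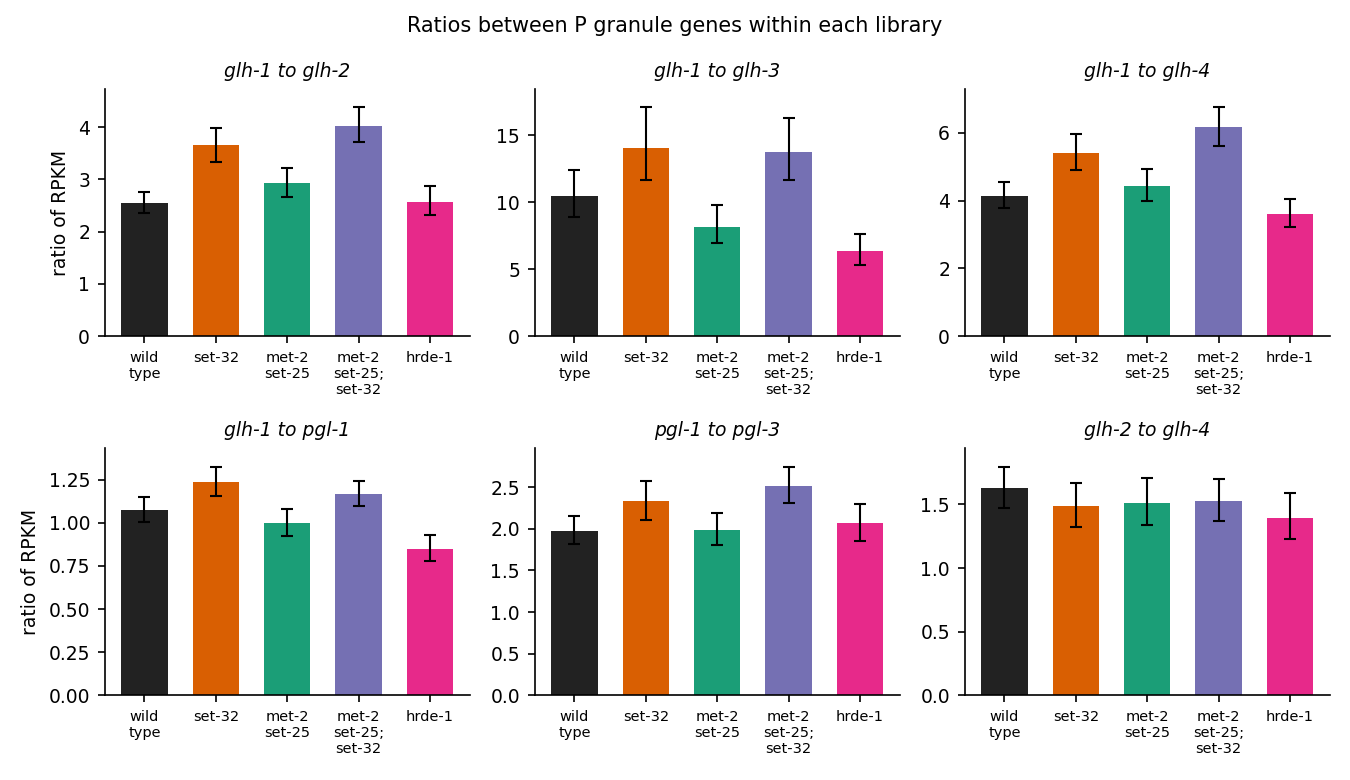
Ratio of the RPKM of pairs of P granule genes within each of the 5 libraries (bars from 0, exact counting intervals of 95%). *glh-1* to *glh-3* runs from 6.33 in *hrde-1* to 14.1 in *set-32*, whereas *glh-2* to *glh-4* stays between 1.40 and 1.63.

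Comparing *set-32* with WT asks what loss of this one methyltransferase does. The members had a median log2 ratio of -0.26, with 6 of 7 below 0, beside a median of -0.04 over the 10092 models tested. Of those models 5475 were below 0, as were 582 of 742 in the intrinsic class. Intervals lay below 1 for 4 members (*pgl-3*, *glh-2*, *glh-4* and *deps-1*) and above 1 for *glh-1*, where 16.7% and 11.4% of all models tested with a length did so. In models that reached 20 RPKM in the higher library, whose read numbers are nearer to those of the members, these shares were 23.8% and 13.7%. The median was near those of the authors' intrinsic (-0.23) and oocyte (-0.28) classes. In the same library the summed RPKM of 30 major sperm protein models, all of them detected, was 2903 against 1234 in WT. That of 8 yolk protein models, with 2 models each for *vit-2* and *vit-6*, was 1.38 times WT. Outside the yolk genes, the intestinal markers *ges-1* and *elt-2* were at 1.37 and 0.765 times WT, each with an interval that included 1. The part of sample makeup in the lower values was not tested. Scaled to the intrinsic class, *glh-1* was at 0.38 and *pgl-1* at 0.17 on the log2 scale, and *pgl-3*, *glh-2*, *glh-4* and *deps-1* lay between -0.14 and -0.01.

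For *met-2 set-25* against WT, which concerns the other pair of HMTs, the median of the members was -0.19 with 6 of 7 below 0. All models tested had a median of 0.05 and the intrinsic class of -0.01, with 4369 of 10108 and 385 of 740 below 0. Intervals lay below 1 for *glh-1*, *glh-2*, *glh-4* and *deps-1* (4 of 7) and above 1 for none, where 7.15% and 9.49% of all models did so, or 9.60% and 11.4% of those with at least 20 RPKM. Set against the median of the other 4 libraries, the members had a median of -0.039.

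In the HMT triple mutant the median of the members was -0.35, the lowest of the 4, again with 6 of 7 below 0. It stood beside -0.03 for all models tested and -0.19 for the intrinsic class, with 5422 of 10112 and 563 of 746 below 0. Intervals lay below 1 for *pgl-3*, *glh-2*, *glh-4* and *deps-1* and above 1 for *glh-1*, with 15.1% and 11.4% of all models, or 21.7% and 12.9% of those with at least 20 RPKM. Scaled to the intrinsic class the median was -0.16, with *glh-2* at -0.35 and *glh-1* at 0.30.

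In *hrde-1*, the mutant of the nuclear Argonaute itself, the median was -0.15 with 5 of 7 below 0. It stood beside 0.01 over all models tested and 0.04 in the intrinsic class, with 4799 of 9941 and 343 of 747 below 0. Intervals lay below 1 for *glh-1*, *glh-2* and *glh-4* and above 1 for none, with 10.2% of all models on either side, or 12.6% and 13.3% of those with at least 20 RPKM. The 3 genes are all helicases, and *glh-1* was 25.4% lower than in WT and *glh-2* 26.1% lower. The remaining helicase gene, *glh-3*, lay on the other side, at 1.24 times WT (0.979 to 1.56). Against the other 4 libraries the median turned to 0.035, with *deps-1* at 0.27. In that setting *glh-1* was at -0.48, *glh-2* at -0.06 and *glh-4* at 0.039. Summed markers of tissues differed from WT in these libraries too, and whether sample makeup had a part was again not tested. The major sperm protein sum was 1.33, 1.17 and 0.895 times that of WT in the double mutant, the triple mutant and *hrde-1*, and the yolk protein sum 0.929, 1.20 and 1.23 times. The intervals of *ges-1* and *elt-2* included 1 in each of these libraries. Other somatic markers went the other way from yolk in *hrde-1*, where the summed collagen RPKM was 0.735 times and that of 10 body-wall muscle models 0.836 times WT, with 8 of the 10 muscle intervals below 1.

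Setting the HMT triple mutant against the HMT double mutant, which differ in *set-32* and do not involve the WT library, gave a second view of the *set-32* allele. *glh-1* was 1.23 times as high with *set-32* lost (1.15 to 1.32), beside 1.11 for the same loss in WT. *pgl-3* was at 0.829 (0.743 to 0.927) and *glh-3* at 0.734 (0.582 to 0.924), beside 0.818 and 0.828. These pairs share no library, and the direction was the same in both for *glh-1*, *pgl-3*, *glh-2*, *glh-3*, *glh-4* and *deps-1*. Only *pgl-1* had opposite signs, each within counting error. The interval also included 1 for *glh-3* in *set-32* over WT and for *deps-1* in the triple over the double mutant. In each pair most models were below 0, 5475 of 10092 and 6071 of 10224. So were 582 of 742 and 537 of 747 in the intrinsic class, and 580 of 678 and 561 of 679 in the oocyte class. Lower values were thus common among germline genes in each pair. The share of all models with the same direction in both was not counted, so the agreement of the members has no background beside it. Scaled to the intrinsic class, *deps-1* was at 0.008, *glh-2* at -0.004 and *glh-4* at -0.02 in the triple over the double mutant. By the 2-fold rule 0 of 7 members were called here, beside 2.13% of all models higher and 1.77% lower. Intervals in the triple over the HMT double mutant lay above 1 for 1 member and below 1 for 4, with 7.09% and 13.5% of all models tested. The intrinsic class had a median of -0.16 here and the members also -0.16.

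The triple mutant against *set-32*, which concerns the loss of *met-2* and *set-25* where *set-32* is already mutated, gave ratios near 1. By the 2-fold rule 0 members were called, as were 2.73% of all models higher and 2.6% lower. The median of the members was -0.04, with 6 of 7 below 0. It stood beside 0.01 over all models tested and 0.03 in the intrinsic class, with 4989 of 10225 and 329 of 744 below 0. Ratios ran from 0.856 (0.761 to 0.964) for *glh-4* and 0.882 (0.794 to 0.978) for *glh-2* to 1.03 (0.965 to 1.10) for *pgl-1*. Only *glh-4* and *glh-2* had an interval that excluded 1, both below it. Of all models tested 8.19% lay below and 10.1% above, or 10.5% and 12.8% of those with at least 20 RPKM. *glh-1* was at 0.974 (0.915 to 1.04), while the same loss in WT gave 0.879.

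Other genes of P granules and of their regulation were described from 6 lists with 43 genes, of which 42 were matched and tested in every mutant (*cde-1* was not matched). None was 2-fold from WT in any mutant. In *set-32* the 42 genes had a median log2 ratio of -0.22, with 33 below 0, and 22 intervals lay below 1 and 0 above. Of all models with at least 20 RPKM, 23.8% lay below 1 and 13.7% above, with a median of -0.10. The intrinsic and oocyte classes had medians of -0.23 and -0.28, with 582 of 742 and 580 of 678 models below 0. *pgl-2*, the third PGL gene, was the lowest, at 19.9 RPKM against 36.05 in WT (0.551, 0.407 to 0.740). *znfx-1*, a helicase gene of the adjoining Z granule, went from 18.45 to 11.5 RPKM (0.625, 0.514 to 0.757). At the other end stood *meg-2*, for a P granule protein of the early embryo (1.17, 0.834 to 1.65), and *epg-2*, for an autophagy adaptor of PGL proteins (1.14, 0.958 to 1.36), both with an interval that included 1.

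In *met-2 set-25* the median of the 42 genes was 0.01, with 9 intervals above 1 and 7 below, while that of the 7 members was -0.19. The shares over models with at least 20 RPKM were 11.4% above and 9.60% below. *meg-2* was the highest, from 11.55 to 19.0 RPKM (1.65, 1.19 to 2.27), followed by *pie-1*, which encodes a repressor of transcription in germline blastomeres (1.31, 1.06 to 1.62). The lowest were *parn-1*, for a nuclease that trims piRNAs, from 12.4 to 6.84 RPKM (0.552, 0.324 to 0.910), and *epg-2* (0.717, 0.584 to 0.878). In the HMT triple mutant the median was -0.16, with 4 intervals above 1 and 18 below, beside 12.9% and 21.7% of models with at least 20 RPKM and a median of -0.19 in the intrinsic class. *prg-1*, the gene of the piRNA Argonaute in P granules, was the highest, from 98.8 to 135 RPKM (1.37, 1.24 to 1.51), and *wago-4*, for an Argonaute of inherited RNAi, followed (1.25, 1.09 to 1.46). *sepa-1*, for a PGL-binding autophagy receptor (0.674, 0.478 to 0.930), and *pgl-2* (0.690, 0.535 to 0.891) were the lowest. Unlike the 7 members, *prg-1*, *parn-1* and the DEAD-box helicase gene *mut-14* are on the authors' list of nuclear RNAi targets by heterochromatin. They are not on that by transcriptional silencing.

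In *hrde-1* the 42 genes had a median of 0.15 with 34 above 0, where 5138 of 9941 models tested and 403 of 747 intrinsic ones were above 0. Of their intervals 16 lay above 1 and 2 below, beside 13.3% and 12.6% of models with at least 20 RPKM. The 7 members had 5 below 0 in the same library, with 0 intervals above 1 and 3 below. *wago-4* was the highest, from 44.2 to 63.9 RPKM (1.45, 1.24 to 1.70), and *meg-4*, a gene for a protein that stabilizes P granules in the embryo, followed (1.34, 1.01 to 1.77). *ife-1*, for a P granule-bound eIF4E, was the lowest, from 301 to 196 RPKM (0.650, 0.571 to 0.740). *smut-1*, a DEAD-box helicase gene of the small-RNA pathways, was next (0.867, 0.702 to 1.07), with an interval that included 1. All 4 comparisons share the WT library, so counts cannot be added across them.

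The lists were also counted by role, with few genes in each, and the shares of intervals over all models given above apply to these counts too. Of 7 partners in granule assembly, 6 were above WT in *hrde-1* (median 0.14, 2 intervals above 1 and 0 below) and 5 were below it in *set-32* (median -0.21, 3 below 1). Of 11 RNA-binding and translation factors held in P granules, 9 were below WT in *set-32* (median -0.25, near those of the intrinsic and oocyte classes, with 8 intervals below 1) and all 11 in the HMT triple mutant (median -0.12, 6 below 1). Most models of the germline classes lay below 0 there too. In the triple mutant these were 563 of 746 intrinsic and 567 of 680 oocyte models. In *hrde-1*, 9 of the 11 factors were above WT (median 0.19, 7 intervals above 1 and 2 below), as were 403 of 747 intrinsic and 397 of 682 oocyte models. The 10 small-RNA factors tested had medians of -0.27 in *set-32*, with 7 intervals below 1, and 0.11 in *hrde-1*, with 3 above 1.

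The list nearest in function to the *glh* genes was that of 5 other germline DEAD-box helicases. Their median was 0.11 in *hrde-1*, with 3 above 0 and 2 below, and with 2 intervals above 1 and 0 below. The 2 below 0 were *smut-1* at -0.20 and *mut-14* at -0.13. In the same library *glh-1*, *glh-2* and *glh-4* were at -0.42, -0.43 and -0.21 and *glh-3* at 0.30. In *set-32* the median of the 5 other helicases was -0.16, with 1 interval below 1. The 7 somatic repressors of germline genes had medians of -0.21 in *set-32*, 0.02 in *met-2 set-25*, -0.22 in the HMT triple mutant and 0.15 in *hrde-1*. Both PGL autophagy adaptor genes, *sepa-1* and *epg-2*, were below WT in *met-2 set-25*, with 1 interval below 1 (median -0.36).

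**Figure D4:**
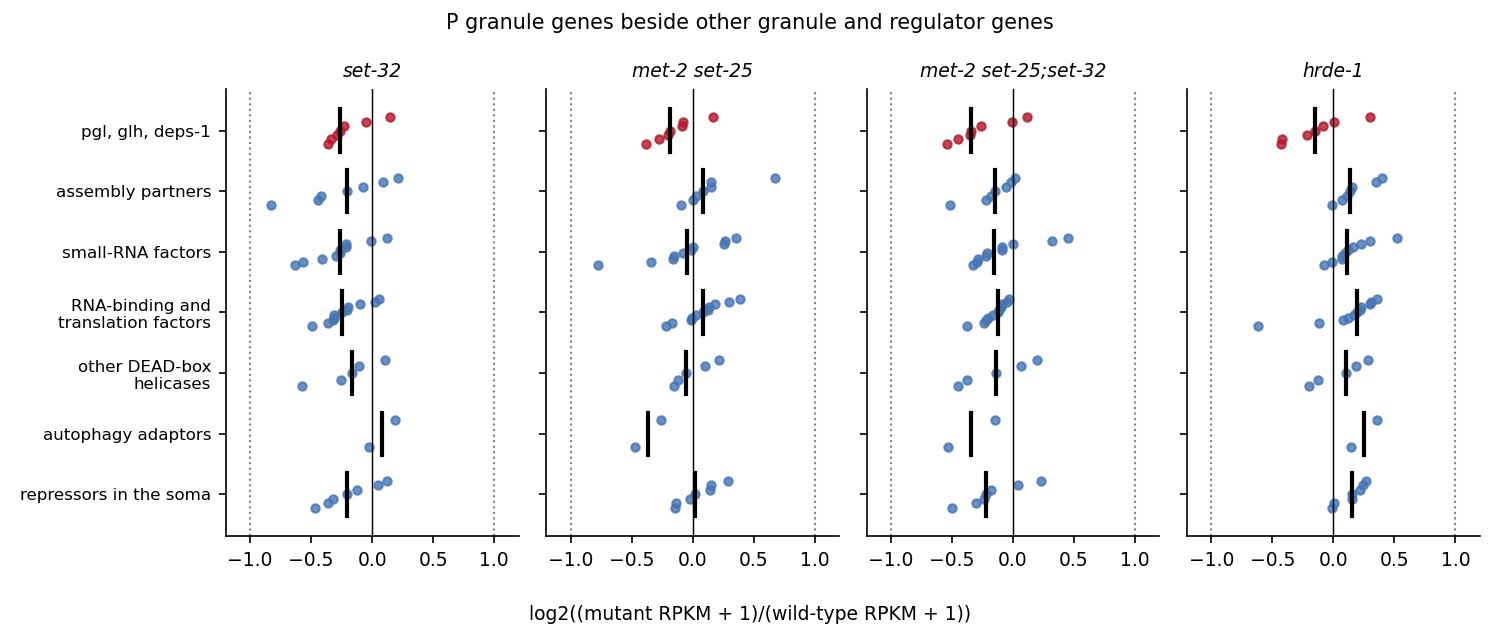
log2((mutant RPKM + 1)/(WT RPKM + 1)) of the 7 P granule genes (red) and of 42 other granule and regulator genes in 6 lists (blue), 1 point per gene, with the median as a black bar and dotted lines at 2-fold. No point passes 2-fold, and in *hrde-1* the red median is -0.15 while that of the 42 other genes is 0.15.

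The genes with the most similar pattern were found by the root mean square difference between log2(RPKM + 1) profiles over the 5 libraries, each centred on its own mean, among the 6053 models whose mean reached 20 RPKM. Nearest to the median profile of the members were *thoc-1* (0.023), *srrt-1* (0.024 and 0.028 for its 2 models), *rpn-9* (0.025) and *rpt-1* (0.025), of which *rpn-9* and *rpt-1* encode proteasome subunits. In all, 569 models (9.40%) lay within 0.1 of that profile, so it is a common one. Of the members themselves, *glh-4* (0.034), *pgl-3* (0.071), *glh-2* (0.091) and *deps-1* (0.097) lay within 0.1, and *pgl-1* (0.116), *glh-3* (0.208) and *glh-1* (0.262) lay outside it. The profile is the median of these same genes, so their closeness to it is partly fixed in advance. It cannot be set against the share of other models as a sign of shared behaviour.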

How the data were processed

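Per the study's methods, single-end reads of 50 nt were aligned by the authors to genome WS190 with Bowtie 0.12.7, only reads without mismatch were kept, and a read with several loci gave each an equal fraction. The deposited values are RPKM for each gene model, normalized by the authors to sequencing depth, from 1 library per genotype. Its columns were assigned to genotypes through the study's table of libraries. Its other columns mark germline class and nuclear RNAi targets. Reads that *glh* or *pgl* paralogs share are thus split between them, to an extent not analysed here. No other model had the 5 values of a member.

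Lengths came from the WBcel235 annotation (Ensembl release 115), joined on the sequence name for 20315 models (97.1%), as coding length where the model carries no transcript number and exon length where it does. The RPKM of 1 read at 1 kb was estimated from low values of models without untranslated parts (42.4% to 54.0% came out whole within 0.1 reads, 20% by chance), so read numbers are approximate. Log2 ratios used a pseudocount of 1 RPKM, which understates changes of low genes. The procedure was tested on simulated whole reads with the same lengths, which cannot test the effect of wrong lengths or of reads split between loci. Python 3.11.15, numpy 2.4.6, pandas 2.3.3 and scipy 1.17.1 were used. The members, the lists and the rules were chosen with earlier results of these data known. From the lists, each mutant's 2 top and 2 bottom genes by ratio were named, and any past 2-fold. By likeness the 5 nearest models were named.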

Additional observations from a re-analysis of the deposited data

Results flagged for a closer look

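For 3 values the same loss went opposite ways in 2 genetic backgrounds, each with 1 library, and the difference was not tested. Loss of *set-32* gave *pgl-1* a log2 ratio of -0.05 in WT and 0.07 in *met-2 set-25*, a difference of -0.13. Loss of *met-2* and *set-25* gave *pgl-1* -0.08 in WT and 0.04 in *set-32*, also a difference of -0.13, since both contrasts use the same 4 libraries. For *glh-3* the second loss gave 0.17 in WT and -0.00 in *set-32*, a difference of 0.17. All 6 counting intervals included 1.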

How the results depend on the processing

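Pseudocounts of 0.1 and 5 RPKM and rescaling to a median ratio of 1 left every median and every single-gene value of the members within its counting interval. Dropping the filter or setting it at 20 RPKM could not alter them, since every member exceeded 20 RPKM in all libraries. The count past 2-fold stayed at 0 under all alternatives, with little room to move, as no member ranged beyond 1.50-fold. Referred to the other 4 libraries (their median per gene) in place of WT, the members moved to a median of -0.039 in *met-2 set-25* and 0.035 in *hrde-1*. The direction turned for *glh-2* in *set-32* (0.045) and *met-2 set-25* (0.015) and for *glh-4* in *set-32* (0.014) and *hrde-1* (0.039), since WT was their highest library. Among values whose interval against WT included 1, it also turned for *pgl-3* in *met-2 set-25* (0.13) and *hrde-1* (0.035) and for *pgl-1* in the triple mutant (0.06). Rescaled to the intrinsic class, the median was -0.16 in the triple mutant and -0.0039 for the triple over the double mutant. This setting put 15 of 42 single-gene values outside their counting interval. Among them was *pgl-1*, at 0.17 in *set-32*, 0.18 in the triple mutant and 0.23 for the triple over the double mutant. Averaging several models of a gene was not run, since each member had 1 model. No paired analysis was possible because each genotype had 1 library. A single WT library enters every comparison with WT, and depth limits *glh-3* most.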

Other observations

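The profile of *glh-1* over the 5 libraries was compared with those of all models whose mean reached 20 RPKM, a comparison chosen after its values were seen. The nearest were *eif-2alpha* (0.030), a translation initiation factor gene, Y53F4B.14 (0.033), T12D8.9 (0.034), *hacl-1* (0.040) and *mai-2* (0.040), none of them in a germline class of the authors. *eif-2alpha* was at 174, 191, 146, 181 and 122 RPKM in WT, *set-32*, *met-2 set-25*, the triple mutant and *hrde-1*, the same order of libraries as *glh-1* (313, 348, 275, 339 and 234). The other members lay farther from *glh-1*, from 0.188 for *pgl-1* to 0.433 for *glh-3*.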
